A study of Mus musculus with 2 samples.

Results

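The proteasome subunit genes were described in microglia sorted from the brains of sham-operated mice. A row of the count files was taken as a member when its Ensembl identifier mapped to a protein-coding gene whose symbol begins with Psma, Psmb, Psmc, Psmd or Psme followed by a digit, with Psmb8 and Psmb9 left out. The rule matched 43 of the 53801 genes listed. Psmc3ip, which encodes a meiotic recombination protein named for binding PSMC3 and is not a subunit, matched by its letters only (72 counts in library 1 and 203 in library 2) and was set apart, which leaves 42 genes. RNA-seq was available from 2 libraries, each from 1 male mouse of 8 to 10 weeks per the labels, so every mean below has n = 2. Both mice carried Cx3cr1(CreER/wt), an allele that places a tamoxifen-inducible Cre recombinase at the Cx3cr1 locus and leaves 1 working copy of Cx3cr1, on a C57BL/6 background, and served as wild-type controls. Both received tamoxifen at 75 mg/kg per day for 4 days, underwent sham surgery 14 days after the first injection, and were killed 3 days later. Microglia were sorted as CD11c–Ly6G–CD11b+CD45low cells of the left hemisphere. The libraries from mice with middle cerebral artery occlusion were not analysed here, and no label separates the 2 sham libraries, so no test between groups was possible and no p-value is given.

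The proteasome is the protease that degrades proteins tagged with ubiquitin. Its core is a barrel of stacked rings, with outer rings of alpha subunits that gate the entry and inner rings of beta subunits that hold the cutting sites. A regulatory particle caps the barrel: its base contains a ring of ATPases that unfold the substrate, and its lid removes the ubiquitin chain. In immune cells, interferon-inducible beta subunits replace the constitutive ones and form the immunoproteasome, and a different cap, PA28, can open the barrel without ubiquitin. Microglia, the resident macrophages of the brain, express both forms.

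Library 1 held 23381026 counts on genes and library 2 had 41142609, and counts were divided by these totals and scaled to 1000000 (CPM). A count of 0 then allows up to 0.128 CPM in the former and 0.0729 CPM in the latter. Pairs of values below are in the order library 1, library 2. The 10 microglial marker genes summed to 51226 and 47240 CPM, and none of them was at 0. The sort excluded Ly6G+ cells, yet 13 neutrophil genes summed to 4608 CPM and 62234 CPM, and all 13 were more than 2-fold higher in library 2. The 5 choroid plexus genes summed to 24.1 and 371 CPM. The other marker lists were at 437 and 214 CPM for border macrophages, 222 and 436 CPM for monocytes, 570 and 778 CPM for B cells, 101 and 111 CPM for oligodendrocytes, 6.97 and 8.07 CPM for astrocytes, and 3.08 and 5.76 CPM for neurons. In bulk samples such as these, fewer cells of a type and less RNA per cell cannot be told apart. What part these cells had in the values of the proteasome genes was not tested. Genes with 10 or more counts in each library are called counted here. They numbered 13445 in all, and their common biological coefficient of variation between the 2 mice was 0.478.

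Of the 42 proteasome subunit genes, 41 were counted. Psmb11, which encodes the catalytic subunit made in the thymic cortex, had 0 counts in both libraries. Together the 42 genes took 4853 CPM (95% Wilson interval 4825 to 4881) in the first library and 5920 CPM (5896 to 5943) in the second, or 0.485% and 0.592% of all counts, with a mean of 5386 ± 754 CPM (SD, n = 2). The intervals do not overlap, but each comes from the reads of a single mouse. They cover counting error only and leave out the spread between mice. Amplified reads are also not independent molecules, so the intervals may be too narrow even for counting error. To compare genes with each other, CPM was divided by the length in kb of the longest protein-coding transcript. This takes reads to lie evenly along a transcript, which was not tested. On this scale the 41 counted members had a median level of 79.3 CPM per kb, against 7.32 CPM per kb over the 11501 counted protein-coding genes. Their level was above that median for 39 of 41 members, and above the 90th percentile for 27. The 6 members under the 75th percentile were Psma8, Psmb7, Psmd5, Psmd9, Psme2b and Psme4. With the median length of the coding transcripts or the union of exons, alternatives chosen here after seeing the data, 39 were again above the median of all genes, while 23 and 22 were above the 90th percentile. Under the median length Psmc6 and Psmd10 took the places of Psmd5 and Psmd9 under the 75th. Levels and orders per kb below are for the longest transcript unless another length is named, and where another length changes the highest or lowest gene of a class this is said. For 7 members over 20% of the windows of 75 bases, the length of a read, also occur in annotated transcripts of other genes (Psme2b 60.2%, Psme2 51.7%, Psmb5 40.0%, Psma5 39.8%, Psmb3 33.1%, Psmb7 24.1%, Psma3 21.3%), so their counts are uncertain. The order of the levels per kb was close in the 2 mice (across the 41 genes, Spearman's rho 0.976 and Pearson's r of the log2 values 0.977), given as a description, since all points come from the same 2 libraries.

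**Figure D1:**
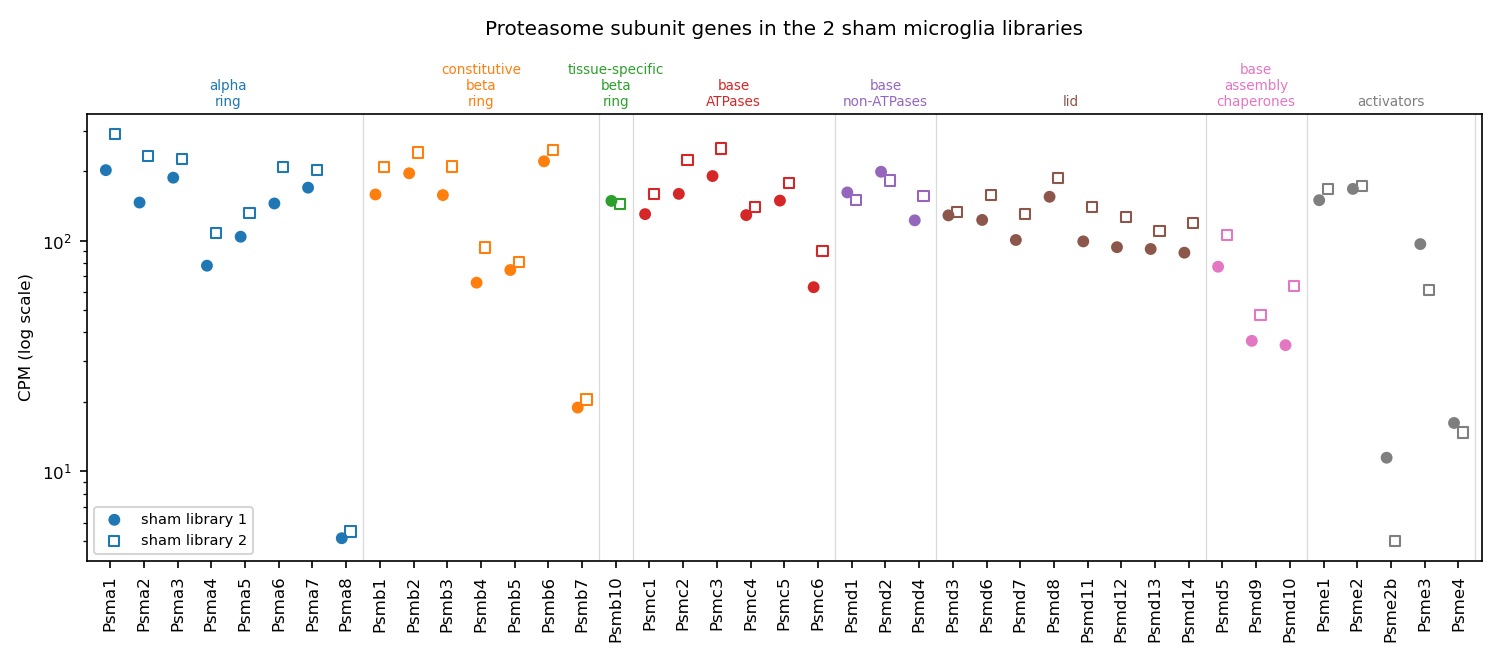
CPM of each counted proteasome subunit gene in sham library 1 (filled circles) and sham library 2 (open squares) on a log axis, grouped by place in the complex. Genes of the core, base and lid lie between 62.8 and 289.8 CPM except Psmb7, at 18.9 and 20.5 CPM, and Psma8, at 5.13 and 5.49 CPM, and Psme2b and Psme4 are the lowest activators.

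The alpha ring is built from 7 ubiquitous subunits, Psma1 to Psma7, and Psma8 encodes a form that replaces Psma7 in testis. Summed over the 8 genes, the level was 1037 and 1405 CPM (mean 1221 ± 260, SD). Psma1 was the highest per length, with 4724 and 11923 counts, that is 202 and 289.8 CPM, and 205 ± 51.7 CPM per kb (SD, n = 2). Psma8 was the lowest, with 120 and 226 counts, that is 5.13 and 5.49 CPM, and 3.14 ± 0.151 CPM per kb. Psma7 exceeded Psma8 by 5.60 and 5.76 on the log2 scale of CPM per kb in the 2 libraries, or 48.3-fold and 54.1-fold, and by at least 26.8-fold in each library with the other lengths, so the testis form was detected but at a small part of the ubiquitous one. Among the 7 ubiquitous genes, Psma6 (169.9 ± 43.5 CPM per kb) and Psma7 (161 ± 20.4) came next below Psma1, with overlapping values of the 2 libraries. Psma5, Psma4, Psma3 and Psma2 followed at 95.2, 79.6, 72.5 and 65.1 CPM per kb, each overlapping its neighbour in this order, while Psma7 and Psma5 did not overlap. This order rests on the length used. Psma3 was the highest with the median length (240.2 CPM per kb, and Psma1 228) and Psma6 with the union of exons (143 and 83.3), while Psma8 was the lowest with each.

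The constitutive beta ring has 3 catalytic subunits, Psmb6, Psmb7 and Psmb5, which cut after acidic, basic and hydrophobic residues, and 4 structural ones. Its 7 genes summed to 892 and 1100.5 CPM (mean 996 ± 148, SD). Psmb6 had the highest level per length of all members, with 5159 and 10159 counts, that is 221 and 247 CPM, and 293 ± 23.3 CPM per kb. With the union of exons Psmb2 was higher (181 against 125 CPM per kb). Psmb2 (254 ± 37.0) and Psmb3 (239.5 ± 47.9), both structural, lay just below, and their values overlapped with each other. Psmb2 also overlapped with Psmb6, at 280.3 CPM per kb in library 2 against 276.5 for Psmb6 in library 1. Psmb5 had 1744 and 3328 counts, that is 74.6 and 80.9 CPM, and 86.5 ± 4.95 CPM per kb.

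Psmb7, the trypsin-like subunit, stood apart from the rest of the core. It had 442 and 843 counts, that is 18.9 and 20.5 CPM, and 17.0 ± 0.966 CPM per kb. The next lowest of the 14 constitutive core genes, Psma2, was at 65.1 CPM per kb, 3.84 times higher, and Psmb6 was 17.3 times higher. Subunits of the core enter each barrel in equal numbers. The log2 levels per kb of the 14 genes had an SD of 1.08 in library 1 and 1.10 in library 2. For levels averaged over the libraries the SD of the 14 genes was 1.09, against 2.58 over the 11501 counted protein-coding genes. Without Psmb7, an alternative chosen after seeing the data, the SD averaged over the libraries was 0.804. Psmb7 (chromosome 2 of GRCm38, 38588036 to 38644087, minus strand) shares 24.1% of its 75-base windows and 11.8% of its exonic bases with Nek6, which overlaps it. The part of this overlap in its low count was not tested. With the median length of the coding transcripts or the union of exons in place of the longest transcript, Psmb7 was still the lowest core gene, by 3.96-fold and 6.80-fold.

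Psmb10 encodes the immunoproteasome subunit that takes the place of Psmb7. It had 3476 and 5921 counts, that is 149 and 144 CPM, and 112 ± 2.56 CPM per kb. Its level per kb was 6.96 times that of Psmb7 in library 1 and 6.21 times in library 2, a log2 difference of 2.72 ± 0.115 (SD, n = 2). The other immunosubunit genes, which the rule leaves out, gave other ratios to their constitutive counterparts. Psmb8, which replaces Psmb5, was at 162 and 179 CPM, and its log2 difference from Psmb5 per kb was 0.26 and 0.29. The sign of this difference rests on the length, with means of 0.99 for the median length and −0.78 for the union of exons. Psmb9, which replaces Psmb6, was at 71.0 and 115.7 CPM and below Psmb6 by a log2 difference per kb of −2.40 and −1.85, with means of −0.77 for the median length and −2.33 for the union of exons. In both mice, then, the order of these ratios was Psmb10 over Psmb7, Psmb8 over Psmb5, Psmb9 over Psmb6, and the values of the 2 mice did not overlap between pairs under any of the 3 lengths. Neutrophils and B cells can express immunosubunits as well. The neutrophil genes were at 4608 and 62234 CPM where Psmb10 was at 149 and 144 CPM. In the same libraries Psmb8 was at 162 and 179 CPM and Psmb9 at 71.0 and 115.7 CPM. What part such cells had in these values was not tested.

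Upstream sequences of these catalytic genes are shown because a transcription factor pair, NFE2L1 and NFE2L2, is known to raise constitutive subunit genes through antioxidant response elements, while immunosubunits are known to follow interferon. Each line gives 100 bases before both the RefSeq start and the start of the gene in the deposited annotation, 5′ to 3′ on the strand of the gene. They are from RefSeq on GRCm38.p6, at chr14:54618023-54618122 (minus strand) for Psmb5, chr11:70525257-70525356 (plus strand) for Psmb6 and chr8:105938445-105938544 (minus strand) for Psmb10. Capitals mark a match to TGACNNNGC, the core of the antioxidant response element.
Psmb5: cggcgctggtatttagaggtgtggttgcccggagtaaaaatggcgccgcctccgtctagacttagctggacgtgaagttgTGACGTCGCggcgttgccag
Psmb6: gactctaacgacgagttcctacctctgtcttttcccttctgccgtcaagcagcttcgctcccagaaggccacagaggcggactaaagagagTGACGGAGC
Psmb10: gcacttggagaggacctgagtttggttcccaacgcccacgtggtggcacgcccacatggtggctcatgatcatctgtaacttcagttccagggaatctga
The match begins 47 bases before the RefSeq start in Psmb5 and 9 bases before it in Psmb6, and no match lies in the Psmb10 stretch. A window of 250 bases before to 50 bases after the start was in the RefSeq table for 35 of the 42 members. TGACNNNGC, searched on both strands, occurred in 6 of these 35 (17.1%; Psmb5, Psmb6, Psmc6, Psmd9, Psmd12 and Psme4), against 13.99% of the 27025 genes of the table. CCAAT, searched on both strands with no match overlapping the first motif, occurred in 13 of 35 (37.1%), against 41.1% of all genes. Both shares are near those of all promoters of the same length, and a match is a description of letters, not of binding.

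**Figure D2:**
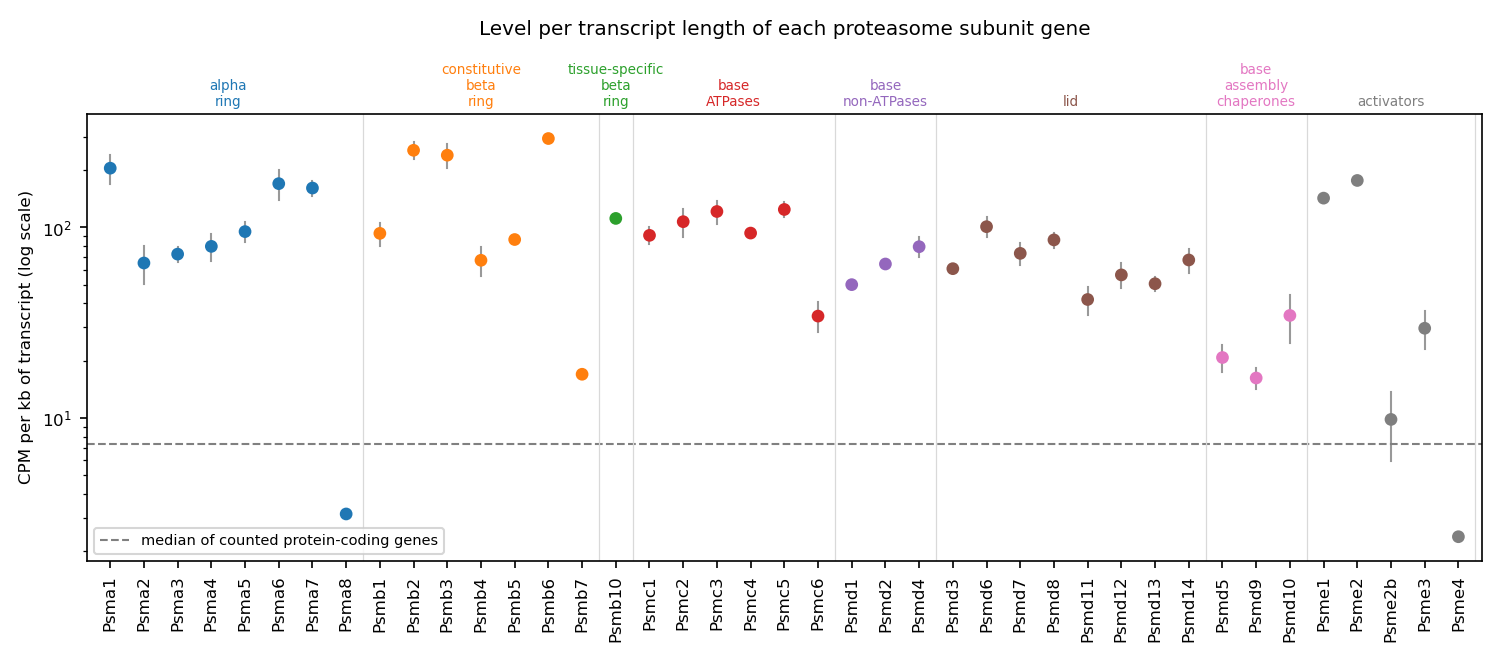
Level per transcript length (CPM per kb, log axis) of each counted proteasome subunit gene, as the mean of both libraries (points) with a line between the values of the 2 libraries. The constitutive core genes lie between 65.1 and 293 CPM per kb except Psmb7, at 17.0, and Psma8 and Psme4 lie under the dashed median of counted protein-coding genes, 7.32.

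The base of the regulatory particle carries 6 ATPases, Psmc1 to Psmc6, that form the unfolding ring. Their genes summed to 821 and 1042 CPM (mean 932 ± 156, SD). Psmc5 was the highest per length, with 3486 and 7329 counts, that is 149 and 178 CPM, and 124 ± 15.6 CPM per kb. Psmc3 (121 ± 23.5 CPM per kb), Psmc2 (107 ± 25.4), Psmc4 (93.5 ± 5.51) and Psmc1 (91.0 ± 12.8) followed with overlapping values, and Psmc3 was the highest with the median length (144 CPM per kb). Psmc6 was the lowest, with 1469 and 3718 counts, that is 62.8 and 90.4 CPM, and 34.3 ± 8.72 CPM per kb, and it overlapped with none of the other 5. It was the lowest with each of the 3 lengths.

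The non-ATPase subunits of the base, Psmd1 and Psmd2, are scaffolds that dock substrate carriers, and Psmd4 is a ubiquitin receptor. Their sums differed little, at 483 and 488 CPM (mean 486 ± 3.86, SD). Per kb Psmd4 was the highest, with 2863 and 6420 counts, that is 122 and 156 CPM, and 79.3 ± 13.5 CPM per kb. Per kb Psmd1 was the lowest, with 3782 and 6183 counts, that is 162 and 150.3 CPM, and 50.1 ± 2.61 CPM per kb. Psmd2 was at 199 and 182 CPM and 64.3 ± 3.98 CPM per kb. With the median length Psmd2 was the highest, at 289 CPM per kb against 107 for Psmd4, and Psmd1 was the lowest with each length. A further ubiquitin receptor of the base, Adrm1, falls outside the rule and was at 96.0 and 106 CPM, but 72.5% of its 75-base windows also occur in a gene copy.

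The lid holds Psmd14, the enzyme that cuts off the ubiquitin chain, its partner Psmd7, and scaffold subunits around them. The 8 lid genes summed to 881 and 1102 CPM (mean 992 ± 157, SD). Per kb Psmd6 was the highest, with 2874 and 6469 counts, that is 123 and 157 CPM, and 101 ± 17.5 CPM per kb. Per kb Psmd11 was the lowest, with 2320 and 5737 counts, that is 99.2 and 139 CPM, and 41.9 ± 9.98 CPM per kb. Neither place held with every length. With the median length Psmd11 was the highest (167 CPM per kb) and Psmd12 the lowest (57.9), and with the union of exons Psmd8 was the highest (55.8) and Psmd11 the lowest (18.7). Psmd14 had 67.5 ± 14.2 CPM per kb and Psmd7 had 73.2 ± 13.4, and their values overlapped. Sem1, a small lid subunit outside the rule, was at 95.9 and 172 CPM.

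Psmd5, Psmd9 and Psmd10 carry subunit symbols but encode chaperones that hold the ATPases during assembly of the base and leave the finished particle. They summed to 149 and 217 CPM (mean 183 ± 47.9, SD). Per kb they ran from 16.2 ± 2.92 CPM for Psmd9 to 34.6 ± 14.01 for Psmd10, with Psmd5 at 20.8 ± 4.61. With the median length the order turned, with Psmd9 at 57.3 and Psmd10 at 35.0 CPM per kb. Psmd10, also known as gankyrin (chromosome X, 140948429 to 140956728, minus strand), had 824 and 2616 counts, that is 35.2 and 63.6 CPM. Its log2 ratio of library 2 over library 1 was 0.85 (95% exact interval of counting error 0.74 to 0.97), the highest of the 41 members.

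The activators are caps that open the core without the base and lid. Psme1 and Psme2 form the interferon-inducible PA28 ring, Psme3 forms a nuclear ring of its own, and Psme4 encodes the large nuclear cap PA200. Psme1 had 3500 and 6888 counts, that is 149.7 and 167 CPM, and Psme2 had 3918 and 7079 counts, that is 168 and 172 CPM. Per kb, Psme2 was at 177 ± 3.30 and Psme1 at 143 ± 11.3, and with the median length the 2 changed order (Psme1 223 and Psme2 214). Psme3 (chromosome 11, 101316213 to 101323537, plus strand) had 2259 and 2514 counts, that is 96.6 and 61.1 CPM, and its values did not overlap with those of Psme1 per kb (log2 difference −1.89 and −2.71, with means of −1.02 for the median length and −1.46 for the union of exons). Psme4 had 379 and 607 counts, that is 16.2 and 14.8 CPM, and the lowest level per kb of the counted members, 2.39 ± 0.159. Its longest transcript has 6491 bases, and with the median length it was at 23.6 CPM per kb, above Psma8 (3.91) and Psme2b (9.84). Psme2b, a copy of Psme2 on chromosome 11 (48945354 to 48946190, minus strand) whose span equals its transcript of 837 bases, had 268 and 206 counts, that is 11.5 and 5.01 CPM. It shares 60.2% of its 75-base windows with Psme2, so how the reads were divided between these genes is uncertain. The 4 rows of proteasome pseudogenes named for Psmb5, Psmb6 or Psmb7 had between 0 and 3 counts in each library.

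The upstream sequence of Psme3 is shown since it is, beside Psme2b, the member with the largest negative ratio between the mice. It was read from RefSeq on GRCm38.p6 at chr11:101316113-101316212 (plus strand), and the capitals mark ATTGG, which is CCAAT read on the opposite strand, 14 bases before the start.
Psme3: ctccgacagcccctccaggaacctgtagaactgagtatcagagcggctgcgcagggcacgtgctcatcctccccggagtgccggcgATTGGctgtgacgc

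The spread between the 2 mice was described by the ratio, the log2 of CPM in library 2 over that in library 1. It lay between −0.13 and 0.67 for the core, base and lid genes and between −1.19 and 0.16 for the activators. Over the 41 counted members it had a median of 0.30 and an SD of 0.35, against a median of −0.26 and an SD of 1.06 over all 13445 counted genes. Over the 5900 genes that reached 500 counts in each library the median was −0.14 and the SD 0.86. Only 1 of 41 members, Psme2b, was more than 2-fold lower in library 2, against 25.9% of all counted genes, and none was more than 2-fold higher, against 5.74%. The members higher in library 2 by any amount numbered 35 of 41, against 38.5% of all counted genes. The 6 lower ones were Psmb10, Psmd1, Psmd2, Psme2b, Psme3 and Psme4. Relative to the median of all counted genes, which no change of the overall scale affects, the members' median was 0.56 higher. That all-gene median moved from −0.26 to −0.01 with TMM scaling and to 0.01 with DESeq2 size factors. Under both, Psmb10, Psmd1, Psmd2 and Psme4 changed sign, so that 39 of 41 members were higher in library 2. The share of all counted genes that were higher was then 49.8% with TMM scaling and 50.6% with DESeq2 size factors.

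All 14 constitutive core genes had a ratio above 0, from 0.12 to 0.67, with a median of 0.37. The medians were 0.34 for the 6 ATPases, 0.37 for the 8 lid genes and 0.46 for the 3 chaperones, and every gene of these classes was above 0 as well. Psma2, the core gene with the highest ratio, had 146 and 233 CPM, a log2 ratio of 0.67 (95% exact interval 0.61 to 0.73). Psmb10, at −0.05 (−0.11 to 0.01), lay below every constitutive core gene. Psmd1 (−0.11) and Psmd2 (−0.13) lay below Psmd4 (0.35). Of the activators, Psme1 was at 0.16 (0.10 to 0.22) and Psme2 at 0.04 (−0.02 to 0.09), while Psme3 was at −0.66 (−0.74 to −0.58) and Psme2b at −1.19 (−1.46 to −0.93). Psme3 and Psme2b were lower in library 2 under each scaling and total tried, with the ratio of Psme3 from −0.67 to −0.39. Without the 5 activators the 36 remaining members had a median of 0.35 and an SD of 0.21. The neutrophil genes differed between these libraries by far more, from 4608 to 62234 CPM. Their removal from the totals moved the members' median to 0.38 and that of all genes to −0.18, while RNA of subunit genes from such cells stayed in the counts and its part was not tested.

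**Figure D3:**
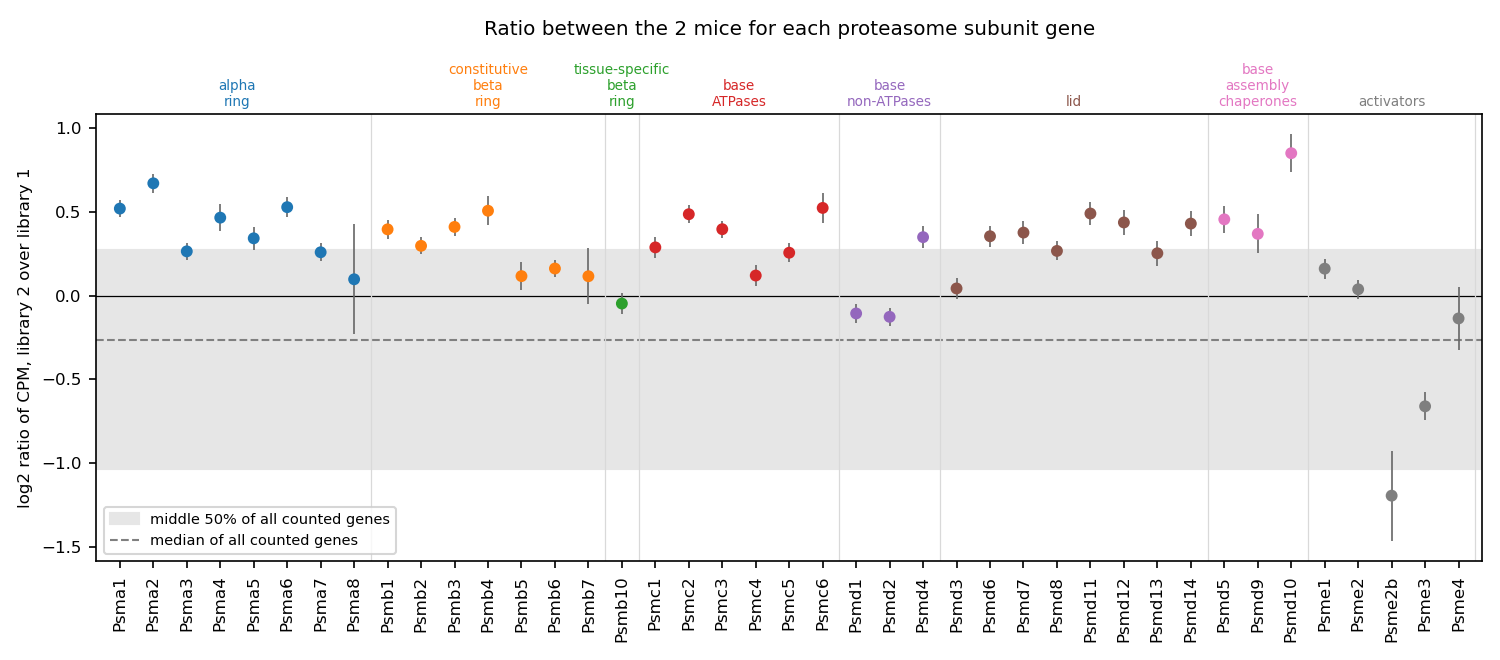
The log2 ratio of CPM in library 2 over library 1 for each counted proteasome subunit gene, with 95% exact intervals of counting error (lines), beside the median (dashed) and middle 50% (band) of all 13445 counted genes. Of the 41 members, 35 lie above 0, and Psme2b and Psme3 lie lowest. With TMM or DESeq2 scaling Psmb10, Psmd1, Psmd2 and Psme4 change sign, and with adjustment for GC content and length 8 members do.

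Transcript length moved with this ratio. The median ratio of all counted genes was −0.0084 in the shortest of 10 equal bins of transcript length, 0.19 in the second (1002 to 1510 bases), −0.26 in the sixth (2861 to 3372 bases) and −1.08 in the longest (6332 bases and over). The members are short, with a median of 1581 bases against 2860, and 36 of 41 lie in the 5 shorter bins. In each of the 8 bins that hold members, their median was above that of all genes of the bin. The difference was small in the second bin, where 13 members had a median of 0.34 against 0.19. It was also small in the sixth, where 3 members had a median of −0.11 against −0.26. It was widest in the eighth bin and the longest, which hold only 1 member each. Psmd5, with a transcript of 4397 bases, was at 0.46 where all genes of its bin had a median of −0.81. Psme4, with 6491 bases, was at −0.14 against −1.08. After subtraction of the median of genes of like GC content and length, the members' median was 0.17, and 30 of 41 were above 0. Of the 13445 counted genes, 6691 were above 0 after this subtraction, which sets their median to 0 by construction. The 8 members that changed sign were Psma7, Psma8, Psmb7, Psmc1, Psmc4, Psmd2, Psme1 and Psme4. Psme2b (−1.12) and Psme3 (−0.75) remained low after the subtraction, and Psmd5 became the highest, at 1.05. What makes the ratio follow length in these libraries was not tested.

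**Figure D4:**
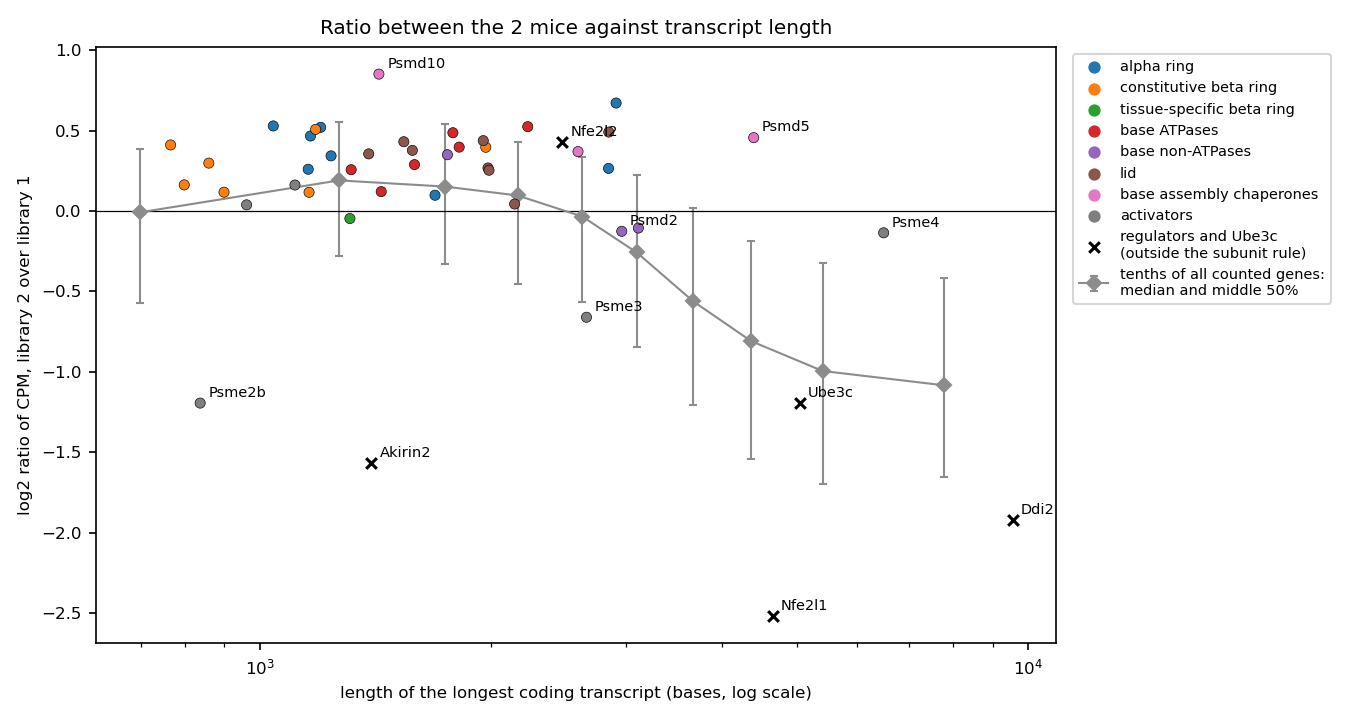
The log2 ratio of CPM in library 2 over library 1 against the length of the longest coding transcript (log axis) for the counted proteasome subunit genes (coloured by class) and for regulators and Ube3c (crosses), with the median and middle 50% of all counted genes in 10 bins of length (grey). The grey medians are −0.0084 in the shortest bin, 0.19 in the next and fall to −1.08 in the longest. Of the 41 members 8 lie below the median of their bin, Psme2b and Psme3 by the most, and Nfe2l1, Akirin2 and Ddi2 lie well below. With adjustment for GC content and length 8 members change sign, among them Psmd2 and Psme4.

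Genes that act on the proteasome but lie outside the subunit rule were read from a list of 22, of which 21 were matched by symbol and counted, and Paaf1 was not matched. Their median ratio was 0.15, 12 of 21 were higher in library 2 by any amount, 4 were more than 2-fold lower and none was more than 2-fold higher, against 38.5%, 25.9% and 5.74% of all counted genes. As a share, the 4 are no more than the background. With TMM or DESeq2 scaling Sem1 passed 2-fold higher (1.10 and 1.12) and Ube3c no longer passed 2-fold lower (−0.94 and −0.92), and with adjustment for GC content and length Sem1 was at 1.16. Psmf1 and Psmg4 were among those that changed sign under TMM or DESeq2 scaling. Of the 4, 3 are regulators. Nfe2l1 encodes the transcription factor that raises subunit genes when the protease is inhibited, and had 2430 counts in library 1 and 745 in library 2, that is 104 and 18.1 CPM (log2 ratio −2.52, 95% exact interval −2.64 to −2.40). Ddi2 encodes the protease that releases it, and had 1422 and 660 counts, that is 60.8 and 16.0 CPM (−1.92), with 18.3% of its exonic bases shared with Rsc1a1. Akirin2, needed for the entry of proteasomes into the nucleus, had 924 and 548 counts, that is 39.5 and 13.3 CPM (−1.57). The remaining listed regulator, Nfe2l2, went the other way and was higher in library 2 (log2 ratio 0.43). Any relation of these ratios to those of the subunit genes was not tested.

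Length bears on these regulators unequally. The transcripts of Nfe2l1 and Ddi2 are long, 4654 and 9553 bases, and after adjustment for GC content and length their ratios were −1.11 and −0.77. Akirin2 has a transcript of 1397 bases, and its adjusted ratio was −1.71. The fourth gene past 2-fold, Ube3c, a ubiquitin ligase bound to the proteasome, went from −1.20 to −0.19. Nfe2l2, the relative of Nfe2l1 that answers oxidative stress, was at 310.1 and 418 CPM (log2 ratio 0.43). With 1 library on each side of this ratio, it has no replicate check.

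Pomp, which matures the core, was at 157 and 214 CPM, a log2 ratio of 0.44, near the median of the constitutive core genes. After adjustment for GC content and length it was at 0.91, against a median of 0.20 for those genes. Psmg1, Psmg2, Psmg3 and Psmg4, chaperones that place the alpha subunits, had ratios of 0.35, 0.02, 0.44 and −0.13 at 11.4 to 40.3 CPM. Psmf1, an inhibitor of the core, was at 63.2 and 62.9 CPM. The proteasome-bound deubiquitinases were at 34.9 and 56.6 CPM for Uchl5 and 88.2 and 98.5 CPM for Usp14. The polyubiquitin gene Ubb was at 1128 and 1563 CPM, with 56.8% of its 75-base windows shared with other genes. Rps27a, which encodes ubiquitin fused to a ribosomal protein, shares 67.5% of its windows with other genes, so its 161 and 126 CPM are uncertain.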

How the data were processed

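RNA was sequenced from microglia of 2 sham-operated mice, 1 library each. Per the paper's methods and the labels, cDNA was made with SMART-Seq HT and Nextera XT, and reads (paired-end, 75 bases) were mapped with HISAT2 to GRCm38 and counted per Ensembl gene with HTSeq. The versions, annotation release and strand setting are not given in the sources used here. The authors deposited raw counts for each gene, with no normalization. Symbols and lengths were from GENCODE M21, in which 53620 of 53801 identifiers were found.

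CPM, ratios and levels per kb were computed with Python 3.11.15, pandas 2.3.3, numpy 2.4.6 and scipy 1.17.1 (exact binomial and Wilson intervals, 95%), and plots with matplotlib 3.10.9. TMM and dispersion came from edgeR 4.0.16 and size factors from DESeq2 1.42.0 (R 4.3.3). GC content and length were adjusted in 10 bins each, falling back to bins of GC content if a pair of bins held under 20 genes, and this step was tested on simulated ratios. Shared sequence was counted as 75-base windows found in annotated transcripts of other genes. The members, marker lists and pathway list were chosen with earlier results of these data known. All members were named, by class, with full values for the highest and lowest level per kb in each class, members past 2-fold, catalytic subunits and activators. Psma2, Psmd5 and the genes described by a sign were singled out after their values were seen. Alternatives were other scalings, totals, filters, fold limits, lengths and leaving out a library. The labels give the treatment as none while the titles name sham surgery, and the paper's methods give an age of mice that differs from the labels. Some genes of the pathway list are counted in its totals but not reported here by name.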

Additional observations from a re-analysis of the deposited data

How the results depend on the processing

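With 2 libraries, each mean is limited by the spread between 2 mice, and depth limits only the lowest genes (Psma8, Psme2b). The members' median ratio of 0.30 stayed above 0 throughout, at 0.56 with TMM, 0.57 with DESeq2 size factors, 0.38 without neutrophil genes in the total, 0.17 adjusted for GC content and length, 0.35 with at least 500 counts and 0.36 over the 25 members with no shared window (chosen after seeing the data). The members more than 2-fold lower numbered 0 with TMM, 0 with DESeq2, 0 with at least 500 counts (where Psme2b is no longer included) and 2 at a 1.5-fold limit; those higher numbered 1 with TMM, 1 with DESeq2, 1 after adjustment and 2 at 1.5-fold. Without their most abundant gene the summed means were 762 CPM (beta ring), 711 (ATPases), 295 (base non-ATPases), 821 (lid), 91.6 (chaperones) and 261 (activators), by construction, and the base non-ATPases were at 503 CPM without neutrophil genes in the total. The SD of the core genes was 1.204 with the union of exons, 0.980 with no length, 0.772 without genes that share windows and 0.804 without Psmb7. The log2 difference of Psmb10 and Psmb7 was 3.90 with the union of exons and 2.89 with no length. The differences per kb of 2 pairs turned in sign, Psmb8 and Psmb5 to −0.78 with the union of exons and Psme1 and Psme2 to 0.060 with the median length (both chosen after seeing the data). Except where a length or gene was removed by construction, the cause was not tested. Of 372 recomputed CPM values of 62 genes, 9 (6 genes) moved by more than 1 SD. The 372 include the values with a library left out, which could not move by that much, so the 9 are not a measure of stability. With a library left out, a mean becomes the value of the other library, always within 1 SD, which says nothing about stability, and a ratio cannot be given. No paired analysis was possible because there is a single group.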
